A study of Mus musculus with 16 samples.

Results

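Endothelial cells line blood vessels, and a solid tumour recruits them from its host. The genes described here are 32 endothelial marker genes, found by symbol among the 49139 named genes of the deposited count tables, and all 32 had a row. Of these, 14 are largely restricted to endothelium (Cdh5, Kdr, Tie1, Plvap, Gpihbp1, Emcn, Cldn5, Robo4, Sox18, Ptprb, Mmrn2, Ecscr, Rasip1 and Clec14a). The other 18 are also made by blood, stromal or tumour cells. The libraries were meant to hold tumour cells, so the question was which of these genes were present in sorted tumour cells, and how they differed between the sorted populations.

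The cells were 4T07 cells, a mouse mammary carcinoma line, labelled with GFP or mCherry. In the experiment, 250000 cells, GFP and mCherry mixed 1:1, were injected into a mammary fat pad; the hosts were female F1 mice, Balb/cJ x C57BL/6J. Each host of a mixed tumour then received PD1KO Jedi T cells by tail vein. Jedi T cells recognise a peptide of GFP, so that GFP cells were their targets and mCherry cells of the same tumour were bystanders. T cells were given on day 7 or on day 15 of tumour growth and tumours were taken 7 days later. This gave GFP and mCherry cells of 3 tumours in the day 7 group and of 3 tumours in the day 15 group, 1 library each. Control libraries were mCherry cells of 4 tumours that held no GFP cells and received no Jedi cells. No harvest day or number of injected cells is recorded here for the control tumours, so their age relative to the mixed tumours is unknown. Tumours were dissociated for 20 min at 37 °C with collagenase IV, hyaluronidase and DNase, and sorted after a CD45 stain. No endothelial marker is named in the sort, and no library of GFP cells without Jedi cells or of cultured cells is among those analysed here. The line carries both fluorophores as separate populations, so colour, T cell targeting and any difference between those populations cannot be told apart. The day 7 libraries came from RNA-seq run 1 and all others from run 2, so day and run cannot be told apart.

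Libraries held 9412040 to 14535791 counts in day 7 GFP cells, 12942893 to 19970822 in day 7 mCherry cells, 21183324 to 24880582 in day 15 GFP cells, 21832170 to 22248031 in day 15 mCherry cells and 24367417 to 32808354 in controls. Levels are in CPM, the usual unit of counts relative to library size, with sizes scaled by TMM within each run. Numbers of tumours and controls are those of the count columns. Errors after ± are SD over tumours (n = 3, or 4 for controls), and standard errors (SE) belong to log2 fold changes. A gene was called where edgeR's quasi-likelihood test, with the tumour as a block, gave an adjusted p under 0.05 over all genes tested.

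Endothelial cells hold each other through the junction proteins encoded by Cdh5 (VE-cadherin), Pecam1, Cldn5 and Esam. They grow and survive through the VEGF receptors Kdr and Flt1 and the angiopoietin receptor Tek with its partner Tie1. Transcription factors of the ETS family, such as Erg, and of the SOX F group, such as Sox17 and Sox18, hold the endothelial programme in place. In tumours, Esm1 and Apln are known from tip cells, the leading cells of a growing sprout, although carcinoma cells can make either.

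ETS factors bind a short core, GGAA, and 16 of the 32 genes matched RefSeq's promoter windows (GRCm38.p6). In the 250 bases before the start site, CAGGAA (searched on both strands, so also as TTCCTG) was present in 11 of 16 promoters (68.8%), against 25.4% of 27025 promoters of the same length. CCGGAA (both strands, also TTCCGG), which shares the core GGAA with it, was present in 6.2% of the 16 and 12.2% of all. The hypoxia core ACGTG (both strands, also CACGT) was present in 6.2% and 16.6%. Median GC content was 54.6% against 52.0%. A match describes letters in a window and is not a measured binding site. Shown are the promoters of Emcn and Kdr, vessel genes that were lower in GFP cells on day 7, and of Esm1, the member called higher in GFP cells on day 15, with CAGGAA or CCGGAA, on either strand, in capitals. They read 5′ to 3′ on the gene's strand, at chr3:137340828-137341077 (plus) for Emcn, chr5:75978456-75978705 (minus) for Kdr and chr13:113209409-113209658 (plus) for Esm1.
Emcn: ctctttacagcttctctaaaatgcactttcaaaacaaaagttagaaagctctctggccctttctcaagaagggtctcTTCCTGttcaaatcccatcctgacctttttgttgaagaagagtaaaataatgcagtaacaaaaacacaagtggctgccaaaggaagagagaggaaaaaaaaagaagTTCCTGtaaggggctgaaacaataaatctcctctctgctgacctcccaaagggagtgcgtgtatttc
Kdr: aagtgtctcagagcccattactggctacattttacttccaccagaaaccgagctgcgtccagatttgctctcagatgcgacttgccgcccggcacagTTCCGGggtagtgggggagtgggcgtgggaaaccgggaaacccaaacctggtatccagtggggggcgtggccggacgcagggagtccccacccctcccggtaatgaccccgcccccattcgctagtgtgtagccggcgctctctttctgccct
Esm1: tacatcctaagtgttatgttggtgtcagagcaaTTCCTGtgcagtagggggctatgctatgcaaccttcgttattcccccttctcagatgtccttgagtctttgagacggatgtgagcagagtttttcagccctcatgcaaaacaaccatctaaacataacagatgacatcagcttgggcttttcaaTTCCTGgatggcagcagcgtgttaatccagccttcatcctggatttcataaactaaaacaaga

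Emcn and Esm1 each held CAGGAA in 2 places and Kdr held CCGGAA in 1. Measured levels of the 32 genes spanned several orders of magnitude. Per kilobase of exon, Esm1 was the most abundant in each of the 5 groups, Apln ranked 2 and Ecscr ranked 3. Esm1 encodes endocan, a secreted proteoglycan. It lies on chromosome 13 (113209659 to 113218098, plus strand, mm10). Its level per kilobase was 237 CPM in day 7 GFP cells, 196 in day 7 mCherry cells, 443 in day 15 GFP cells, 346 in day 15 mCherry cells and 294 in controls. Apln, which encodes the peptide ligand apelin (chromosome X, 48025146 to 48034853, minus strand), stood at 13.6 to 19.0 CPM per kilobase in the 5 groups. Its receptor gene Aplnr stood at 0.00677 to 0.168 CPM per kilobase. Kdr, the main signalling receptor for VEGF (chromosome 5, 75932827 to 75978458, minus strand), stood at 0.0267 to 0.381 CPM per kilobase. Pecam1 stood at 0.0713 to 1.06. Both secreted tip-cell products thus stood above each receptor and junction gene in each group.

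Genes with no count were found mostly in day 7 GFP cells. Zeros also depend on depth: in day 7 tumour 2 the GFP library held 9412040 counts and the mCherry library 19970822. All libraries of run 2 were deeper still, so numbers of zeros are not strictly comparable between groups. All 32 genes had counts in every control and every day 15 mCherry library. In day 7 GFP cells, 12, 8 and 8 of the 32 genes had no count in tumours 2, 3 and 4. Day 7 mCherry cells had 1, 1 and 0 such genes, and day 15 GFP cells 2, 2 and 1. Robo4, Rasip1 and Clec14a had no count in any of the 3 day 7 GFP libraries. Robo4 encodes a vessel-stabilising receptor and Rasip1 a regulator of the forming vessel lumen. Against a floor of 3 counts over the group, Robo4 (58 counts in mCherry cells) was at least 15-fold lower in GFP cells, Rasip1 (33 counts) at least 8.54-fold and Clec14a (20 counts) at least 5.17-fold. Such bounds cover counting error only. Exons of Egfl7 (with Agpat2) and Nos3 (Atg9b) overlap those of a gene on the other strand, and whether counting used strand is not stated. Exons of Ramp2 (Vps25), Rasip1 (Izumo1) and Egfl7 (also Gm20532) overlap those of a gene on the same strand, which use of strand would not separate. The values of these genes are uncertain to that extent.

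**Figure D1:**
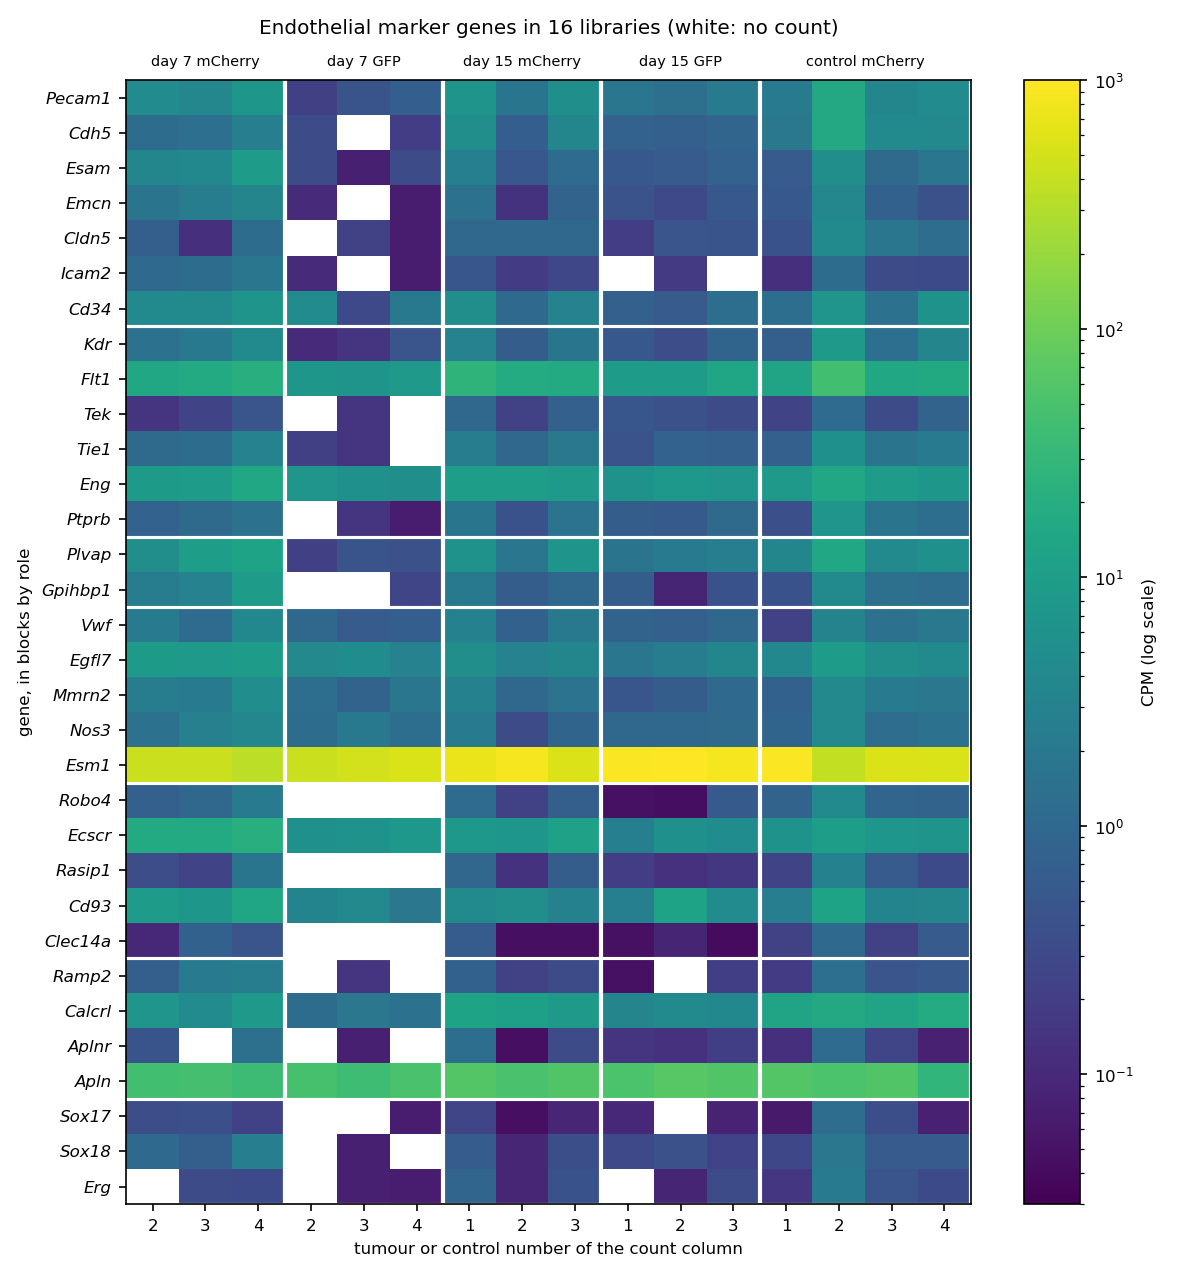
Heat map of CPM (log colour scale) of the 32 endothelial marker genes, in blocks by role, in the 16 libraries grouped by day and colour; white cells had no count. Esm1 and Apln are bright in every column, most white cells lie in the 3 day 7 GFP columns, and control 2 is brighter than the other controls for most vessel genes.

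In day 7 tumours most vessel genes were lower in GFP cells than in the mCherry cells beside them. Of 32 genes, 23 had enough counts to test, 19 were called lower in GFP cells and 0 higher. Over all genes tested, 9.33% were called lower and 8.89% higher. The median log2 fold change was −2.03 over the 23 genes and −0.0037 over all genes tested. No member had an unadjusted p under 0.05 for a higher level, and DESeq2 also called 0 higher. The 9 genes left untested were Tek, Cldn5, Ramp2, Sox17, Sox18, Erg, Rasip1, Aplnr and Clec14a. Over all 32, the 3 GFP libraries lay below the 3 mCherry libraries for 24 genes. Among the 23 tested it was 19, against 17.3% of all genes tested. Of the 23 tested genes, 13 were below the filter's 0.717 CPM in at least 1 GFP library and passed through the mCherry cells, so a difference was built into their selection. The other 10 were above it in all 3 GFP libraries, and 7 of these were called lower. In bulk RNA, fewer vessel cells in a sort, less RNA per vessel cell and lower expression by tumour cells cannot be told apart.

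Junction and adhesion genes were among those that fell. Pecam1, an adhesion molecule that leukocytes and platelets also carry, measured 0.214, 0.451 and 0.667 CPM in GFP cells from tumours 2, 3 and 4, and 4.62, 3.77 and 7.31 CPM in their mCherry cells. The groups did not overlap, and the fold change was −3.50 on the log2 scale (SE 0.36, adjusted p = 0.000199). Cdh5, the defining junction cadherin of endothelium, gave 3, 0 and 3 counts in GFP cells and 24, 21 and 33 counts in mCherry cells (log2 fold change −3.38, SE 0.68, adjusted p = 0.00768). Emcn, a sialomucin of capillary and venous endothelium, gave 1, 0 and 1 counts in GFP cells against 33, 37 and 43 (log2 fold change −5.37, SE 0.67, adjusted p = 0.000553). Here a handful of reads in the GFP cells set the size of the change. Esam, a junction molecule shared with platelets, measured 0.321, 0.0752 and 0.333 CPM against 3.53, 3.90 and 9.20 CPM and fell by 4.54 on the log2 scale (SE 0.43). Icam2, an integrin ligand, gave 1, 0 and 1 counts against 21, 19 and 23 and fell by 4.50 (SE 0.75). Cd34, also a marker of stem and stromal cells, was not called. It measured 4.50, 0.301 and 2.00 CPM in GFP and 4.37, 4.35 and 6.61 CPM in mCherry cells, so the groups overlapped (log2 fold change −1.44, SE 0.51, adjusted p = 0.0815).

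Growth factor receptors separated into 2 kinds. Kdr measured 0.107, 0.150 and 0.467 CPM in GFP and 1.49, 1.98 and 4.25 CPM in mCherry cells (log2 fold change −3.38, SE 0.46, adjusted p = 0.001). Tie1, the orphan partner of the angiopoietin receptor, measured 0.214, 0.150 and 0 CPM against 1.09, 1.22 and 3.07 CPM (log2 fold change −3.90, SE 0.78). Ptprb, the phosphatase that restrains Tek and VE-cadherin signalling, measured 0, 0.150 and 0.0667 CPM against 0.794, 1.09 and 1.49 CPM and fell by 3.76 (SE 0.72). These genes were close to absent from GFP libraries. Flt1, a VEGF decoy receptor that myeloid and other cells also make, stayed measurable at 7.5, 6.54 and 8.14 CPM in GFP and 14.7, 17.6 and 21.8 CPM in mCherry cells. It fell by 1.28 (SE 0.18, adjusted p = 0.00125). Eng, a TGF-β co-receptor present on many stromal cells and macrophages, measured 6.86, 5.49 and 5.47 CPM against 8.84, 9.15 and 15.7 CPM (log2 fold change −0.88, SE 0.24, adjusted p = 0.0322). The call on Eng was lost without tumour 3 or without tumour 4, and the exons of Eng overlap those of Fpgs on the other strand.

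Of the capillary wall genes, Plvap, which builds the diaphragms of fenestrated vessels (chromosome 8, 71497765 to 71511752, minus strand), measured 0.214, 0.451 and 0.400 CPM in GFP cells. In mCherry cells it measured 5.06, 9.79 and 12.4 CPM, a log2 fold change of −4.65 (SE 0.32, adjusted p = 2.05e-05). Gpihbp1, which carries lipoprotein lipase to the capillary surface, gave 0, 0 and 4 counts in GFP cells and 49, 47 and 117 counts in mCherry cells (log2 fold change −5.63, SE 0.55). Both stood apart from mCherry cells in each tumour.

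Among secreted products and vessel tone genes, Vwf, the clotting factor carrier, measured 0.964, 0.601 and 0.667 CPM in GFP and 2.14, 1.15 and 3.85 CPM in mCherry cells and fell by 1.60 (SE 0.44). Mmrn2, a matrix protein of the vessel wall, measured 1.29, 0.827 and 1.80 CPM against 2.38, 2.17 and 4.88 CPM and fell by 1.25 (SE 0.33). Egfl7, a secreted vessel factor, measured 3.96, 4.74 and 3.07 CPM against 8.64, 8.25 and 9.59 CPM and fell by 1.18 (SE 0.24). Each kept its groups apart, with smaller gaps than the junction genes. Mmrn2 was not called by DESeq2, without the tumour block, or without tumour 3 or tumour 4, nor Vwf by DESeq2 or without tumour 4. Nos3, the endothelial nitric oxide synthase, was not called (log2 fold change −0.82, SE 0.36, adjusted p = 0.151). Esm1 measured 441, 496 and 552 CPM in GFP and 438, 437 and 355 CPM in mCherry cells. Although no GFP library lay below an mCherry library, the difference was not called (log2 fold change 0.28, SE 0.13, adjusted p = 0.165). Of the remaining surface genes, Ecscr, an endothelial apoptosis and motility regulator, measured 5.68, 6.24 and 7.80 CPM against 17.5, 17.4 and 20.3 CPM (log2 fold change −1.49, SE 0.17, adjusted p = 0.000392). Its exons overlap those of 1700066B19Rik on the other strand. Cd93, a receptor shared with myeloid cells, measured 3.32, 3.98 and 1.87 CPM against 9.09, 7.29 and 13.7 CPM and fell by 1.70 (SE 0.34). Robo4, at 0 in GFP cells, measured 0.745, 0.959 and 2.20 CPM in mCherry cells (adjusted p = 0.00365).

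Peptide hormone signalling genes did not move as one. Calcrl, the receptor for adrenomedullin and CGRP (chromosome 2, 84330626 to 84425411, minus strand), measured 1.18, 1.88 and 1.53 CPM in GFP and 6.85, 4.54 and 8.02 CPM in mCherry cells. It fell by 2.03 (SE 0.31, adjusted p = 0.00205). Its accessory protein gene Ramp2 had counts in 1 GFP library only, at 0.150 CPM, against 0.695, 2.30 and 2.36 CPM in mCherry cells, and was not tested. Apln measured 47.9, 39.5 and 49.6 CPM against 43.6, 46.8 and 38.0 CPM, and the groups overlapped (log2 fold change 0.09, SE 0.14, adjusted p = 0.697). The transcription factors Sox17, Sox18 and Erg stood at or below 0.0752 CPM in each GFP library, against a mean of 0.322, 1.45 and 0.211 CPM in mCherry cells, and were not tested.

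**Figure D2:**
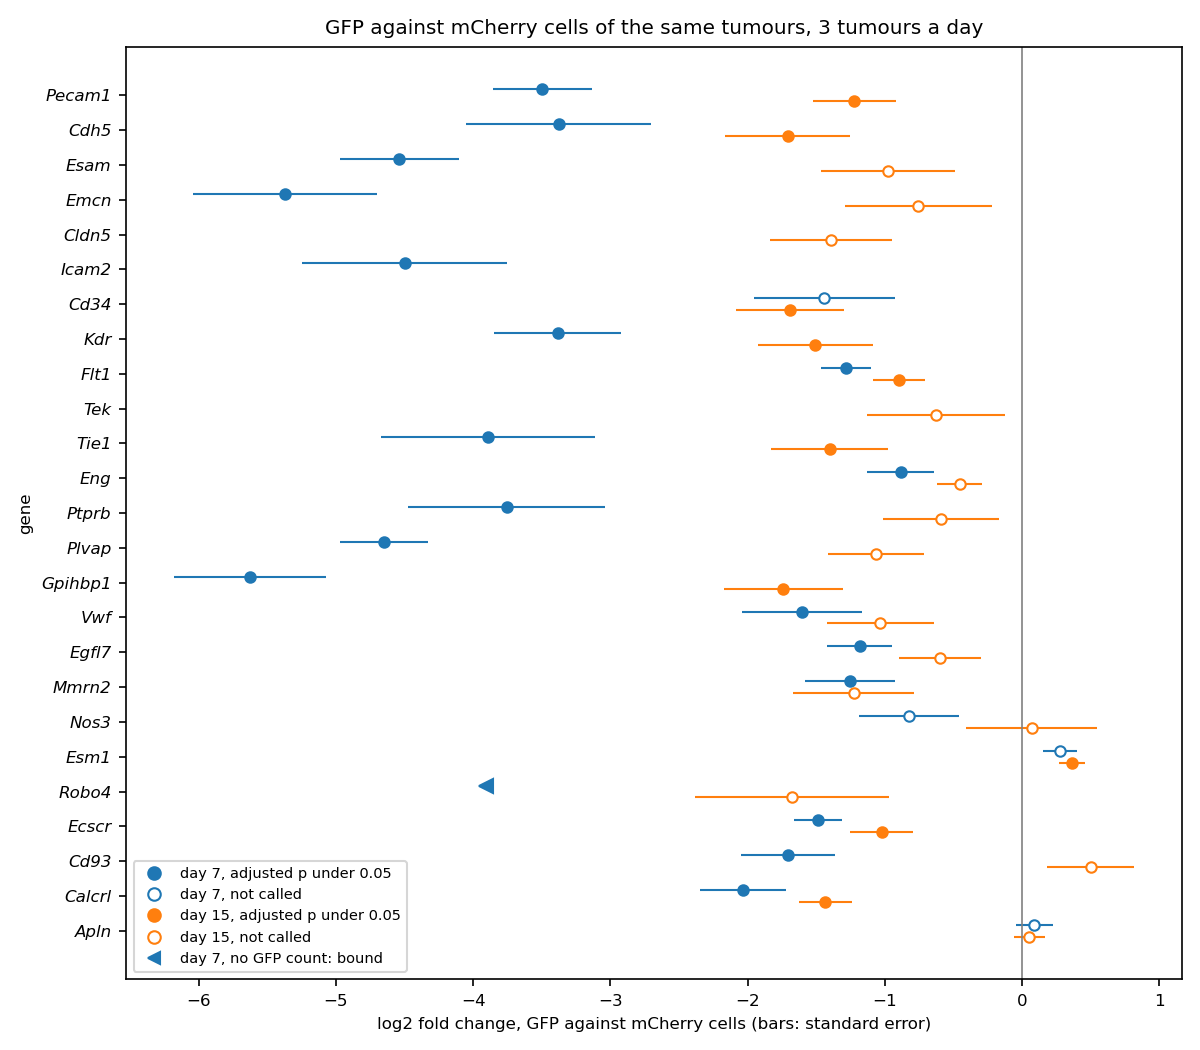
Log2 fold changes of GFP against mCherry cells, with standard errors as bars, for the members tested on day 7 (blue) or day 15 (orange); filled points had an adjusted p under 0.05, and the triangle marks the bound for Robo4, which had no count in day 7 GFP cells. Day 7 points of Emcn, Gpihbp1, Plvap and Esam lie between −5.63 and −4.54, whereas Esm1 and Apln lie between 0.05 and 0.36 on both days.

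In day 15 tumours fewer of the genes were called. Of 32 genes, 24 were tested: 9 were called lower in GFP cells (Pecam1, Cdh5, Kdr, Flt1, Tie1, Gpihbp1, Calcrl, Cd34 and Ecscr) and 1 higher (Esm1). Over all genes tested, 10.6% were called lower and 8.94% higher. The median log2 fold change was −1.03 over the 24 genes and 0.0065 over all genes tested. Over all 32 genes, GFP libraries lay wholly below mCherry libraries for 9. Among the 24 tested it was 7, against 18.4% of all genes tested. The filter's minimum was 0.451 CPM, and 17 of the 24 genes passed it in all GFP libraries, 6 of them called lower. The other 7 were below it in at least 1 GFP library. Kdr, Tie1 and Gpihbp1, called lower, were among these and needed mCherry libraries to pass, so a difference was partly built into their selection. The count of 9 depended on single tumours: it was 3 without tumour 1, 14 without tumour 2 and 4 without tumour 3. It was 5 with no tumour block and 2 where the controls shared the fit.

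Tumour 2 stood apart. Of the 32 genes, 31, 19 and 28 were lower in GFP cells than in mCherry cells of tumours 1, 2 and 3, where 48.97%, 49.33% and 48.89% of all genes tested were lower. On day 7 the counts were 28, 29 and 30 in tumours 2, 3 and 4 (49.51%, 49.44% and 51.39% of all genes). The mCherry library of day 15 tumour 2 was the lowest of its group for 27 of 32 genes, and that of tumour 1 the highest for 28. No share of all genes is given for these counts, so they cannot be read as particular to vessel genes. Summed over the 14 restricted genes, mCherry cells of day 15 tumours 1, 2 and 3 held 36.8, 14.9 and 33.1 CPM and the GFP cells beside them 9.13, 12.3 and 14.5 CPM. On day 7, GFP cells of tumours 2, 3 and 4 held 7.93, 8.27 and 11.1 CPM and mCherry cells 36.5, 43.2 and 69.8 CPM. Ecscr alone made up most of the sum in day 7 GFP cells. Without it, the other 13 genes summed to 2.25, 2.03 and 3.33 CPM in day 7 GFP cells and 19.0, 25.8 and 49.5 CPM in mCherry cells of tumours 2, 3 and 4. On day 15 they summed to 6.39, 6.67 and 9.65 CPM in GFP cells and 29.1, 7.77 and 21.4 CPM in mCherry cells of tumours 1, 2 and 3. The mCherry cells of day 15 tumour 2 thus lay within the range of the GFP cells of that day without Ecscr. Levels of the 2 days were scaled separately and were not compared by a test.

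Cdh5 shows the pattern: it measured 0.781, 0.736 and 0.903 CPM in day 15 GFP cells and 5.13, 0.685 and 3.53 CPM in mCherry cells of tumours 1, 2 and 3 (log2 fold change −1.71, SE 0.46, adjusted p = 0.0258). The mCherry library of tumour 2 lay below all 3 GFP libraries. Pecam1 measured 1.81, 1.39 and 2.18 CPM against 6.54, 1.69 and 5.42 CPM (log2 fold change −1.22, SE 0.30, adjusted p = 0.0187). Kdr measured 0.537, 0.347 and 0.862 CPM against 3.05, 0.640 and 1.70 CPM (log2 fold change −1.51, SE 0.42, adjusted p = 0.031). Both groups overlapped through tumour 2. The calls on Pecam1, Cdh5, Kdr and Tie1 were lost without tumour 1 and without tumour 3, as was Cd34 without tumour 1. Cd34, the blood progenitor and vessel sialomucin, measured 0.732, 0.606 and 1.27 CPM against 5.21, 1.05 and 3.08 CPM (log2 fold change −1.69, SE 0.39, adjusted p = 0.0142). Tie1 measured 0.439, 0.780 and 0.739 CPM against 2.43, 1.01 and 1.97 CPM (log2 fold change −1.40, SE 0.43). Gpihbp1 gave 13, 2 and 10 counts against 46, 14 and 22 (log2 fold change −1.74, SE 0.43), a call lost without tumour 1. DESeq2 did not call Kdr, Tie1 or Gpihbp1. Pecam1, Cdh5, Kdr, Tie1, Cd34 and Gpihbp1 all lost their calls in the fit with controls, and all of these but Tie1 with no tumour block.

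In contrast to these, Calcrl, Flt1 and Ecscr were lower in GFP cells of all 3 tumours with no overlap. Calcrl measured 3.37, 4.33 and 3.90 CPM in GFP and 12.5, 10.6 and 8.54 CPM in mCherry cells, with a log2 fold change of −1.43 (SE 0.19, adjusted p = 0.000817), and was called under each of the 9 alternative settings run. Flt1 measured 9.61, 9.66 and 13.8 CPM against 26.3, 18.3 and 17.2 CPM (log2 fold change −0.90, SE 0.19, adjusted p = 0.00883), a call lost in the fit with controls (adjusted p = 0.162). Ecscr measured 2.73, 5.63 and 4.85 CPM against 7.64, 7.17 and 11.7 CPM (log2 fold change −1.02, SE 0.23, adjusted p = 0.0116), a call lost without tumour 3. Tie1 and Gpihbp1 did not overlap between colours either. Eng measured 6.10, 7.71 and 6.82 CPM against 10.2, 9.82 and 8.17 CPM and was not called (log2 fold change −0.46, SE 0.16, adjusted p = 0.0793). Plvap measured 1.66, 2.08 and 2.55 CPM against 6.01, 1.78 and 6.56 CPM and was not called (log2 fold change −1.07, SE 0.35, adjusted p = 0.0577).

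Esm1 went the other way on day 15. It measured 950, 987 and 851 CPM in GFP and 742, 851 and 586 CPM in mCherry cells of tumours 1, 2 and 3. GFP cells were higher in 3 of 3 tumours, by 0.36 on the log2 scale (SE 0.09, adjusted p = 0.0221). The call was lost without tumour 3, without the tumour block and in the fit with controls. Apln measured 53.1, 66.2 and 60.3 CPM against 61.8, 51.0 and 59.6 CPM, with overlapping groups (log2 fold change 0.05, SE 0.11, adjusted p = 0.784). Cd93 measured 2.64, 12.7 and 4.64 CPM against 4.15, 5.12 and 2.94 CPM and was not called (log2 fold change 0.50, SE 0.32), its highest value being the GFP library of tumour 2. The other tested members that were not called ran from −1.68 (Robo4, SE 0.71) to 0.07 (Nos3, SE 0.48) in log2 fold change.

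**Figure D3:**
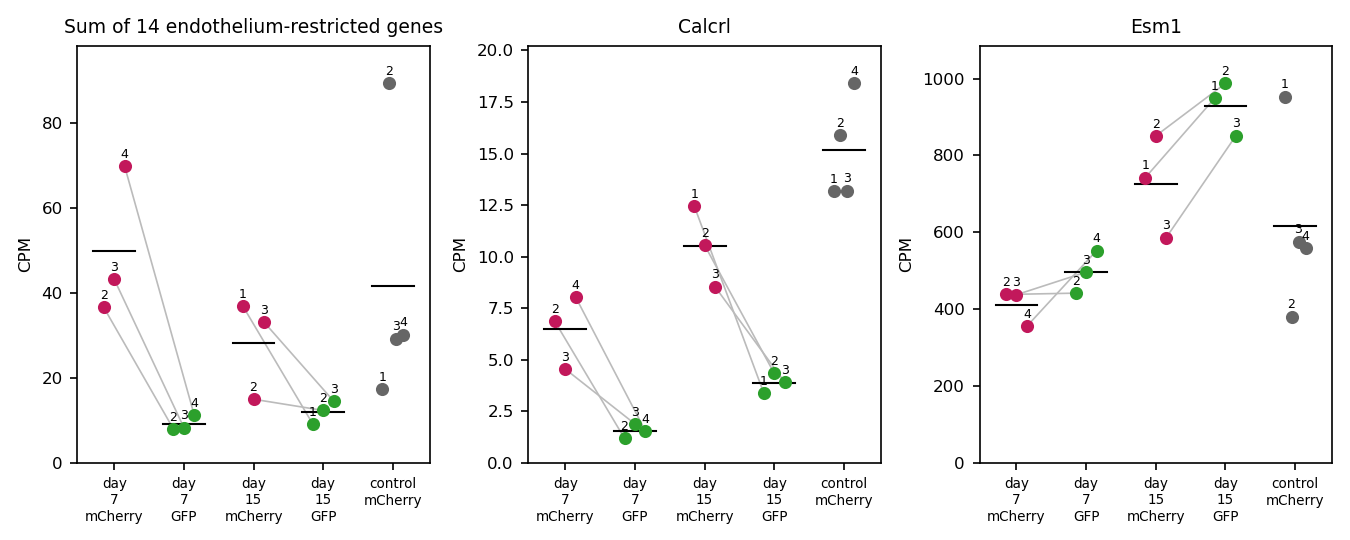
Summed CPM of the 14 endothelium-restricted genes (left), CPM of Calcrl (middle) and CPM of Esm1 (right) in each library, labelled with the tumour or control number of its count column; grey lines join the 2 colours of one tumour number and black bars are group means. The sum is lower in GFP cells in every pair but nearly level in day 15 tumour 2 (14.9 and 12.3 CPM), Calcrl is lower in GFP cells in every pair, and Esm1 is higher in GFP cells in every pair.

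The authors' deposited table for day 7 lists 23 of the 32 genes, 18 of them lower in GFP cells at an adjusted p under 0.05 and 0 higher. The authors' deposited table for day 15 lists 24, with 6 lower and 1 higher. Cd34 on day 7 is lower in the authors' deposited table (log2 fold change −1.64, adjusted p = 0.0218), unlike in the edgeR fit. The authors' deposited table also lists Ramp2 (−5.16) and Sox18 (−5.44) on day 7, which were not tested here. Some genes called lower by edgeR were not lower at that threshold in the authors' DESeq2 values. On day 7 these were Vwf (adjusted p = 0.0817) and Mmrn2 (0.0843), while Robo4 and Ptprb are not listed. On day 15 they were Kdr (0.0659), Tie1 (0.0768) and Gpihbp1 (0.0529).

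The GFP difference itself was compared between days. Of 27 members tested, 1 was called with a smaller loss on day 15 (Plvap) and 0 with a larger one. Of all genes tested, 0.102% were called higher and 0.108% lower. Plvap changed from a log2 fold change of −4.65 on day 7 to −1.07 on day 15, a difference of 3.59 (SE 0.58, adjusted p = 0.0299). That call was lost under 7 of 11 alternative settings, among them leaving out any of the day 15 tumours, day 7 tumour 2 or day 7 tumour 3. At an unadjusted p under 0.05 there were 12 members, all with a more positive log2 fold change on day 15 (for Cd93, −1.70 on day 7 and 0.50 on day 15), against 10.2% of all genes, and DESeq2 called 6. Besides Plvap, those of smallest unadjusted p were Gpihbp1 (0.000357) and Esam (0.000467). Since day and run coincide, what the difference belongs to cannot be told apart.

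Control tumours gave mCherry cells without injected Jedi T cells or GFP cells, and they differed widely among themselves. Control 2 was the highest of the 4 for 29 of 32 genes and control 1 the lowest for 27. The share of all genes with either order is not given here, so these counts are descriptions only. The 14 restricted genes summed to 17.3, 89.2, 29.2 and 30.2 CPM in controls 1 to 4. Kdr measured 0.697, 8.28, 1.37 and 3.40 CPM and Emcn 0.539, 3.65, 0.770 and 0.396 CPM. Control 2 stood at 6.03 times the median of the other 3 controls for Kdr, 6.77 times for Emcn and 4.50 times for Pecam1. It stood at 1.94 times for Eng, 1.57 times for Ecscr and 1.21 times for Calcrl, and at 0.884 times for Apln and 0.661 times for Esm1. Among all genes tested the median of this ratio was 1.00. Across the 32 genes, the ratio in control 2 ran with the ratio of day 15 mCherry tumour 1 to tumour 2 (Spearman's rho 0.72). Across the 23 genes tested on day 7 it ran against the day 7 log2 fold change (rho −0.69). Genes are not independent replicates, and these 32 share each library, so both values are descriptions. Several ratios also rest on few counts. Day 15 mCherry cells of tumour 2 held 1 count each of Sox17, Aplnr and Clec14a, 2 each of Sox18 and Erg, and 3 each of Emcn and Rasip1. Of the 23 genes, 13 had passed the filter through the mCherry cells, and the genes of highest ratio, Sox17 (15.4), Rasip1 (9.28) and Aplnr (9.13), were not tested on day 7. Control 2 was also the highest control for 17 of 18 macrophage, 11 of 12 pericyte and smooth muscle and 6 of 12 fibroblast markers, whose part in the result was not tested.

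**Figure D4:**
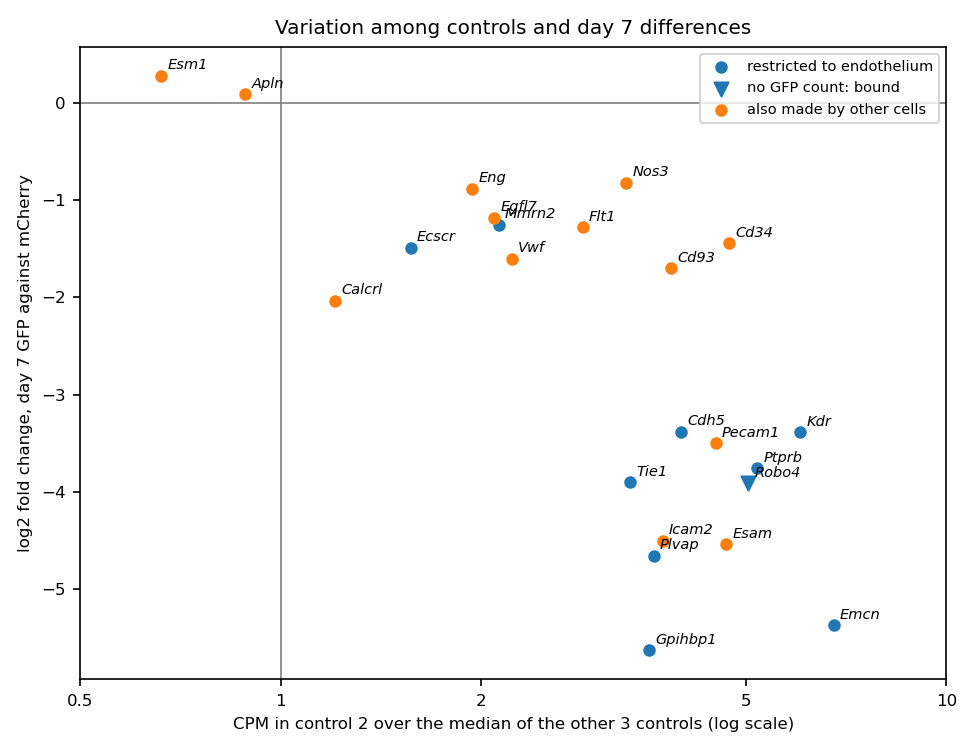
For the 23 members tested on day 7, the CPM of control 2 over the median of the other 3 controls (x axis, log scale) against the day 7 log2 fold change of GFP against mCherry cells (y axis); the triangle is the bound for Robo4. Esm1 and Apln lie at the upper left (ratios 0.661 and 0.884), while Emcn, Kdr and Ptprb, with ratios of 5.20 to 6.77, lie at the lower right.

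Bystander mCherry cells of day 15 were compared with the controls of the same run. Of 29 members tested, 0 were called lower or higher, and 0% of all genes were called in either direction by edgeR's quasi-likelihood test. DESeq2 also called 0 members, and 1 member had an unadjusted p under 0.05, against 14.2% of all genes. That member was Calcrl, at 12.5, 10.6 and 8.54 CPM in bystander cells and 13.2, 15.9, 13.2 and 18.4 CPM in controls (log2 fold change −0.52, SE 0.17, adjusted p = 0.269). The groups did not overlap. The direction of the other genes rested on single libraries: 24 of 29 had a lower mean in bystander cells, but without control 2 it was 8 of 27. Without control 2 and day 15 tumour 2 it was 5 of 29.

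In day 15 GFP cells against controls, 26 members were tested, 2 were called lower and 0 higher, against 6.97% and 6.09% of all genes. This comparison shares the GFP libraries with the comparison within tumours. The called genes were Calcrl and Cdh5. Calcrl stood at 3.87 ± 0.48 CPM in GFP and 15.2 ± 2.5 CPM in controls (log2 fold change −1.97, SE 0.16, adjusted p = 0.00203) and was called under each of 12 alternative settings. Cdh5 measured 0.807 ± 0.087 CPM against 1.90, 16.1, 4.45 and 4.04 CPM in controls 1 to 4 (log2 fold change −3.03, SE 0.73, adjusted p = 0.032), a call lost without any 1 of the GFP libraries or without control 3. Without control 1 the count called lower was 12. Of all 32 genes, 10 lay wholly below the controls. Among the 26 tested it was 8, against 15.3% of all genes tested. Esm1 measured 929 ± 70 CPM in GFP and 953, 380, 576 and 558 CPM in controls 1 to 4 and was not called (log2 fold change 0.59, SE 0.25, adjusted p = 0.146). It was among 17 members with an unadjusted p under 0.05, against 32.2% of all genes. Members low in GFP cells could pass the filter through the controls, so a difference was partly built into their selection here too. Robo4, at 0.0488, 0.0433 and 0.575 CPM in GFP cells of tumours 1, 2 and 3, was such a gene. The number of such members was not counted for this comparison.

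Genes of the wider pathway were described from lists of other genes. Of 34 other endothelial receptors and signalling genes, 18 were tested on day 7, with 5 lower and 4 higher in GFP cells, and 18 on day 15, with 3 lower and 4 higher. Adgrf5, an adhesion receptor of endothelium and lung epithelium, stood at 0.452 ± 0.066 CPM in GFP and 4.42 ± 2.98 CPM in mCherry cells on day 7 (log2 fold change −3.20, SE 0.45). Tmem100, a membrane protein downstream of BMP signalling in vessels, stood at 97.8 ± 16.6 CPM against 27.5 ± 7.3 CPM on day 7 (log2 fold change 1.84, SE 0.11). On day 15 it stood at 49.5 ± 8.8 against 13.1 ± 4.5 CPM (log2 fold change 1.94, SE 0.18). Nrp2, a VEGF and semaphorin co-receptor, was higher in day 7 GFP cells (139.7 ± 15.5 against 82.9 ± 13.5 CPM). Of 22 angiogenic ligands and antagonists, 19 were tested on each day, with 6 lower and 2 higher in GFP cells on day 7 and 2 lower and 3 higher on day 15. Angpt2, the vessel-destabilising angiopoietin, fell by 1.19 on day 7 (36.3 ± 3.8 against 83.0 ± 12.2 CPM). Col18a1, whose product yields endostatin, was higher on day 7 by 1.04 (SE 0.11) and on day 15 by 0.43 (SE 0.09). Efnb2, the arterial ephrin, was higher by 0.73 (SE 0.16) and 0.70 (SE 0.09).

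Markers of other cells moved too. The 18 macrophage markers summed to 130 to 220 CPM in day 7 GFP cells and 757 to 1103 CPM in day 7 mCherry cells, with 17 of 18 called lower and none at 0 in either group. On day 15 they summed to 65.1 to 83.9 CPM and 97.4 to 121 CPM (7 of 14 tested called lower), and in controls to 90.9 to 233 CPM, highest in control 2. Cd14 carried most of the day 15 mCherry sums. Without it, mCherry cells of day 15 tumours 1, 2 and 3 held 40.3, 36.3 and 28.8 CPM, and 4 of the 18 markers were lowest in tumour 2. Pecam1, Cd93, Eng, Flt1 and Cd34 are also made by macrophages or other blood cells, and the part of macrophage RNA in their values was not tested.

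The 12 pericyte and smooth muscle markers summed to 27.6 to 37.7 CPM in day 7 GFP cells and 35.9 to 55.4 CPM in mCherry cells (1 of 5 tested called lower). On day 15 the sums were 61.8 to 117.9 and 95.4 to 124 CPM (2 of 9 called lower), and in controls 60.5 to 127 CPM. Mcam, shared by pericytes and endothelium, was lower in GFP cells by 1.83 (SE 0.23) on day 7 and by 1.32 (SE 0.14) on day 15. The 12 fibroblast markers summed to 850 to 903 against 792 to 1029 CPM on day 7 (2 of 8 called lower), to 1516 to 1684 against 1349 to 1553 CPM on day 15 (6 of 11 lower, 1 higher) and to 1627 to 2556 CPM in controls. Pdgfra, Dcn and Col6a3 carried much of these sums, and 8 of the 12 fibroblast markers were lowest in mCherry cells of day 15 tumour 2, as most vessel genes were. Col3a1, chosen after its values were seen, measured 126, 5.35 and 191 CPM in mCherry cells of day 15 tumours 1, 2 and 3 and 52.6, 685, 152 and 292 CPM in controls 1 to 4. Dcn went the other way, at 266, 346 and 313 CPM in these mCherry cells and 564, 194, 358 and 338 CPM in controls 1 to 4. Pdgfra and Col6a3 were neither lowest in mCherry cells of tumour 2 nor highest in control 2. The 7 adipocyte markers summed to 0.467 to 0.676 against 3.01 to 4.64 CPM on day 7 (2 of 2 called lower; Plin1 at 0 in GFP cells), 47.9 to 90.3 against 75.8 to 93.2 CPM on day 15 and 17.5 to 73.9 CPM in controls. Fabp4, which fell on day 7 with Lpl, is also made by capillary endothelium.

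Lymphatic endothelial markers, 6 genes, summed to 1.58 to 2.46 against 2.88 to 4.52 CPM on day 7, 0.347 to 1.12 against 0.960 to 2.34 CPM on day 15 and 1.08 to 6.08 CPM in controls. Ccl21a was at 0 in all 16 libraries, and Prox1, the defining factor of lymphatic endothelium, was at 0 in all day 15 libraries. The 9 platelet and megakaryocyte markers summed to 5.87 to 8.64 against 6.40 to 9.67 CPM on day 7, 12.7 to 14.5 against 7.62 to 12.2 CPM on day 15 and 12.8 to 13.9 CPM in controls. Pf4, made by platelets and some macrophages, was lower in day 7 GFP cells by 2.44 (SE 0.39). The 16 T and NK cell markers summed to at most 7.39 CPM in day 7 libraries and 2.01 CPM in the others, and the 6 erythroid markers to at most 5.95 CPM in any library. The part of these cells in the endothelial values was not tested.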

How the data were processed

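RNA of 16 sorted libraries was measured. Per the labels' protocols, a sequencing company made the raw gene counts the authors deposited. The genome is mm10, per the submitters' processing notes; aligner, counter and annotation are not stated there. DESeq2 tables by the authors hold log2 fold changes with p-values and scores, per the file headers. Their columns other than log2 fold change and adjusted p-value were not used.

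Genes passed edgeR's filterByExpr (minimum count 10, total 15). TMM set the library sizes, and edgeR (4.0.16, under R 4.3.3) gave quasi-likelihood tests with Benjamini-Hochberg adjustment over all genes tested. GFP and mCherry cells were compared with tumour as a block (2 residual degrees of freedom); cells were compared with controls as 2 groups (5), and days by an interaction (4). Rows without a symbol (176, at most 0.011% of a library's counts) were left out. The day 15 tumour pairs come from the labels. Day 7 pairs come from column numbers, and residual correlations of same-numbered libraries were 0.111 to 0.168 (0.0915 to 0.246 on day 15). Day 7 and control columns were matched to samples only as groups. P-values within tumours and between days measure the spread of the GFP difference across tumours. Those against controls measure the spread between tumours. Coordinates and exon lengths come from GENCODE M21 (mm10) and promoters from RefSeq. By rule, values of GFP and mCherry libraries are printed for members called within tumours on that day and for Eng, Cd34, Flt1, Apln and Esm1. Those of Ramp2 on day 7 and of Plvap and Cd93 on day 15 are printed outside this rule. Most genes of other lists are named among the 3 most abundant or the 2 of smallest p of their list. The fits were checked on simulated counts. Members, lists and tests were chosen with earlier results of these data known. Alternatives were DESeq2 1.42.0, its size factors, no filter, a minimum count of 50, no block, a joint fit and leaving out each tumour; 1 more was chosen after seeing the data.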

Additional observations from a re-analysis of the deposited data

Results flagged for a closer look

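Control 2 lay far above the other 3 controls for 7 of 32 genes, its gap to the next library exceeding Dixon's 95% critical share of the range of 4 values, which chance meets in about 1 in 20 groups. These were Pecam1 (16.1 CPM against 2.22 to 4.55 CPM in the others), Flt1 (42.8 against 12.9 to 16.9) and Emcn (3.65 against 0.396 to 0.770). The others were Robo4 (4.18 against 0.824 to 0.904), Erg (2.11 against 0.159 to 0.469), Rasip1 (2.94 against 0.254 to 0.603) and Cd93 (12.5 against 2.60 to 3.56). The 7 genes come from the same library, so they are not 7 independent events. The figure of 1 in 20 holds for normally distributed values. No share of all genes meeting this rule is given here, so the 7 cannot be read as an excess in vessel genes. Plvap differed in its GFP effect between days, by 3.59 on the log2 scale, being less reduced in GFP cells on day 15 than on day 7.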

How the results depend on the processing

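On day 7, the 19 members called lower became 18 with no replicate block, 18 to 21 when a tumour was left out, and 8 of 11 tested at a minimum count of 50, where fewer genes enter. All genes called (2656) ran from 1156 to 4558 when a tumour was left out. On day 15, the 9 called lower became 5 with no replicate block, 3 at a minimum count of 50, 2 in the joint fit of run 2 and 3 to 14 when a tumour was left out. The 1 called higher became 0 with no replicate block and in the joint fit, and 0 to 2 when a tumour was left out; all genes called ran from 1736 to 2546. For day 15 mCherry cells against controls, members called stayed at 0 under every alternative run; all genes called were 262 with DESeq2 and 0 to 7 when a library was left out. For day 15 GFP cells against controls, the 2 called lower became 14 with DESeq2, 16 with no filter, 4 in the joint fit and 1 to 12 when a library was left out; 0 to 1 were called higher. All genes called were 2953 with DESeq2 and 287 to 2093 when a library was left out. For the difference between days, the 1 member became 6 with DESeq2, 9 with no filter, 0 at a minimum count of 50, 0 with no replicate block and 0 to 1 when a tumour was left out; all genes called (35) were 153, 354, 14, 2 and 3 to 126. The log2 fold change of Apln ran from −0.0561 (without tumour 4) to 0.261 on day 7 and from −0.0989 (without tumour 2) to 0.187 on day 15 when a tumour was left out, so its sign turned. The cause was not tested. Of 327 alternative values for the reported fold changes, 273 kept direction and call, 48 lost and 4 gained a call. Counts near 0 in GFP cells limit most vessel genes.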
